A study of Mus musculus with 2 samples.

Results

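Iron and zinc are needed in every cell and harmful when free, so cells take them up through dedicated carriers and hold the surplus in proteins. The 10 genes described here cover that traffic in sorted mouse lung epithelium: the ferritin subunits Fth1 and Ftl1, which store iron, the transferrin receptor Tfrc and the divalent metal transporter Slc11a2, which bring iron in, the iron exporter Slc40a1 (ferroportin), the heme-degrading enzyme Hmox1, the zinc carriers Slc39a8 and Slc39a14, which also carry manganese and iron, and the metallothioneins Mt1 and Mt2, small cysteine-rich proteins that bind zinc, copper and cadmium. The rule that picks them uses gene names only, although the names were chosen with earlier results of these data known. All 10 were present among 22072 gene symbols, on 15 of 28107 RefSeq transcript rows, and FPKM (fragments scaled to transcript length and to library depth) was summed over the rows of a gene. In the lung the airway surface meets inhaled metals, and airway and alveolar cells are known to carry ferritin and metallothionein.

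Cells were sorted from lungs of adult mice kept on doxycycline food (625 mg/kg) for 16 days, as cells lacking lineage markers, bearing CD326 and intermediate for CD24, a gate chosen to enrich secretory airway cells without cilia. The control mice carried tetOCre and floxed alleles of Mst1 and Mst2 (Mst1-flx/flx;Mst2-flx/flx). The other mice carried the same alleles plus Scgb1a1-rtTA, whose promoter is active in club cells and which lets doxycycline turn on Cre. RNA of 4 mice of a genotype was combined before sequencing, giving 1 control pool and 1 pool labelled Mst1/2 CKO, called the CKO pool here after its label. The 2 pools differ in rtTA and Cre activity as well as in the planned deletion, which cannot be told apart. With 1 library a genotype there is no spread between replicates and no p-value, and each interval below is a 95% interval for counting error only.

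The pools held about 8770000 and 8340000 reads on listed transcripts, as estimated from coverage. Stk4 and Stk3, the symbols of Mst1 and Mst2, were at FPKM of 5.38 and 7.28 in the control pool and 4.71 and 7.09 in the CKO pool. Stk4 was slightly lower, with a ratio of 0.874 (0.783 to 0.974), and the interval of Stk3 included 1 (0.975, 0.862 to 1.10). Whole-transcript levels thus did not clearly mark the deletion, and the deleted exons are not given in the labels. The gate was not pure by transcript: club cell Cyp2f2 was at 4694 and 5305, but alveolar type 2 cell Sftpc was at 7888 and 10270 (10269.7), and the club cell gene Scgb1a1 is listed at 0 in both because its estimate failed (status HIDATA, too many reads). Markers fixed for alveolar type 1 cells summed to FPKM of 190.4 and 428, those for alveolar type 2 cells to 11451 and 14320.4, and those for ciliated cells to 36.6 and 57.7. Club cell markers summed to 12175 and 10439.8 without Scgb1a1, but their directions were mixed. Of the 11 with FPKM of at least 1 in either pool, 4 were higher in the CKO pool and 7 lower. Markers of macrophages and other leukocytes summed to 48.3 and 14.4, and those of basal and mucous cells to 45.6 and 15.1. Those of endothelial cells summed to 11.0 and 6.78, and those of mesenchymal cells to 19.3 and 8.34. These last 2 sums largely follow 1 gene each, Kdr (9.05 and 5.11) and Dcn (11.9 and 3.79). Not all their markers were lower, with endothelial Cdh5 at 0.425 and 0.475 and mesenchymal Col1a1 at 0.824 and 0.828. Other sums also lean on 1 gene each. Alveolar type 2 Sftpc is given above, ciliated Tppp3 was at 24.98 and 40.16, and leukocyte Chi3l3 at 23.97 and 4.51. In such bulk material fewer cells of a type and less RNA per cell cannot be told apart.

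Several of these transcripts are known to be governed by iron through a short RNA hairpin, the iron-responsive element, which iron regulatory proteins bind when iron is scarce. Binding near the 5′ end blocks translation, as in ferritin, and binding in the 3′ untranslated region protects the transcript from decay, as in Tfrc. The hairpins are shown because they divide the members into those with and without this control. GENCODE M21 transcripts (GRCm38), matched to all 15 rows, were searched on their own strand for C, 5 bases, the loop CAGTGN without G at its last place, and 5 bases pairing with the first 5, with G-U pairs allowed. In 4 of the 10 genes this was found, against 1.01% of 21901 protein-coding genes. Allowing 1 unpaired base in the second arm added Slc11a2, and 2.93% of coding genes then matched. Each stretch below runs 5′ to 3′ in DNA letters, with the loop in capitals.
Fth1, 5′ untranslated region, bases 87 to 116 of its transcript: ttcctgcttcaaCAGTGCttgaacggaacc
Ftl1, 5′ untranslated region, bases 78 to 107: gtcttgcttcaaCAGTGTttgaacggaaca
Slc40a1, 5′ untranslated region, bases 90 to 119: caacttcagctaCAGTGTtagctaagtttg
Tfrc, 3′ untranslated region, bases 3315 to 3344: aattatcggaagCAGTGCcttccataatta
Tfrc, 3′ untranslated region, bases 3694 to 3723: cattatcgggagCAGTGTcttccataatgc
Tfrc, 3′ untranslated region, bases 3759 to 3788: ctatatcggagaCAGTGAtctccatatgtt
Tfrc, 3′ untranslated region, bases 3806 to 3835: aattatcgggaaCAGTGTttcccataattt
Slc11a2, 3′ untranslated region of its longer entry, bases 1797 to 1826: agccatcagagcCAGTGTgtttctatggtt

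Levels are compared on the FPKM scale, which is per transcript length. The order in the control pool was Ftl1, Fth1, Mt2, Mt1, Hmox1, Tfrc, Slc39a8, Slc11a2, Slc39a14 and Slc40a1. It was the same in the CKO pool except that Slc39a8 lay above Tfrc. By listed FPKM Ftl1 ranked 7 among all genes in the control pool and 8 in the CKO pool, and Fth1 ranked 43 and 47. These ranks take Scgb1a1 at 0, where it is listed because its estimate failed. Slc39a14 and Slc40a1 were under FPKM of 1 in both pools, which left 8 members for counts of differences.

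**Figure D1:**
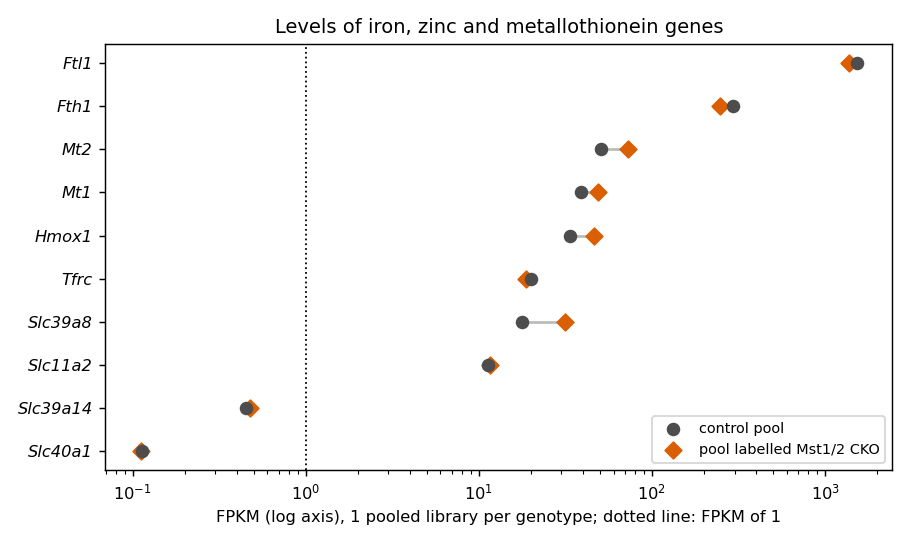
FPKM of each of the 10 genes on a log axis, 1 point per pool (circles, control; diamonds, pool labelled Mst1/2 CKO), ordered by the control level. Ftl1 lies highest at 1522 and 1380.03, and Slc40a1 lowest at 0.114 and 0.112.

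Ftl1, Fth1 and Tfrc, which carry the hairpin, were slightly lower in the CKO pool, while the hairpin-bearing entry of Slc11a2 had a ratio of 1.0004 (0.919 to 1.09). Ftl1, the light ferritin chain (chr7:52713314-52715256, mm9), was at FPKM of 1522 in the control pool and 1380.03 in the other, a ratio of 0.907 (interval 0.894 to 0.920). Fth1, the heavy chain with the ferroxidase site that oxidises iron for storage (chr19:10057193-10059582), was at 293 and 248, a ratio of 0.846 (0.816 to 0.877). The light chain thus exceeded the heavy chain 5.20-fold in the control pool and 5.57-fold in the CKO pool. RefSeq lists 2 pseudogenes of each chain (GRCm38.p6), and the related Ftl2 was at 1.45 and 1.44, so the ferritin levels depend on how shared reads were assigned. Tfrc, which takes up iron bound to transferrin (chr16:32608982-32632880), was at 20.1 and 18.6, a ratio of 0.927 (0.876 to 0.982). All 3 intervals lay below 1, and all 3 differences were small beside the 1.5-fold rule used for counts. The direction of each was the same under all 8 alternative ways of processing.

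For Slc11a2 and Slc40a1 the interval of the ratio included 1. Slc11a2, which moves ferrous iron across the membrane (chr15:100218331-100253486), was at FPKM of 11.4 and 11.5, a ratio of 1.02 (0.933 to 1.10), and its sign turned under 3 of 8 alternatives. Most of it came from the longer entry, which holds the hairpin printed above (4373 bases, FPKM 9.79 and 9.80). The shorter entry, in which no hairpin was found (3023 bases), had 1.58 and 1.75. The longer entry made up 86.1% of the gene's FPKM in the control pool and 84.8% in the CKO pool. Slc40a1, the only known cellular iron exporter (chr1:45964915-45982439), was near the limit of detection at 0.114 and 0.112, about 10 and 9 reads, and its ratio of 0.988 had a wide interval of 0.362 to 2.76. It is known as abundant in iron-recycling macrophages. The summed markers of macrophages and other leukocytes were 48.3 and 14.4, of which Chi3l3 gave 23.97 and 4.51. Of the 16 markers 1 (Emr1) is listed at 0 in the CKO pool. The part of such cells in the level of Slc40a1 was not tested.

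Hmox1, which splits heme into iron, carbon monoxide and biliverdin (chr8:77617517-77624492), was higher in the CKO pool. Its FPKM was 33.7 and 46.1, a ratio of 1.37 (1.28 to 1.47). Its difference in log2(FPKM + 1) of 0.44 was above that of 93.7% of 9945 genes with FPKM of at least 1 in either pool. Hmox1 is also expressed by macrophages. Of 8 markers of macrophages and other leukocytes past the filter, 6 were at least 1.5-fold lower in the CKO pool, beside 2.59% of all genes. Cd68 was at 4.90 and 3.54, and Csf1r was higher there, at 0.984 and 1.80 (ratio 1.83, interval 1.43 to 2.37). The part of such cells in the level of Hmox1 was not tested.

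The metallothioneins were higher in the CKO pool, and their start regions are shown because both genes differed in the same direction and are neighbours. Mt2 (chr8:96696518-96697467) and Mt1 (chr8:96702989-96704227) lie 5521 bases apart in mm9. The metal-sensing factor Mtf1 is known to act on such genes through metal response elements with the core TGCACNC or TGCGCNC. RefSeq entries of 300 bases, 250 before the start and 50 after it, were searched on both strands with overlapping matches counted. Mt2 had 4 cores and Mt1 had 3, and at least 3 were found in 1.97% of 32851 such entries. Before the start alone Mt2 had 3 and Mt1 had 1, since the other 2 of Mt1 lie in the 50 bases after the listed start. At least 1 core before the start was found in 21.4% of entries and at least 3 in 1.26%. The 200 bases before each start, 5′ to 3′ on the plus strand of GRCm38.p6, are given from RefSeq with the cores in capitals. Of the 3 cores before the start of Mt2, 2 lie within these bases and the other begins upstream of them. Of the other 4 members in that table, the second start of Slc39a8 had 1 core and the first of Tfrc had 2, and Fth1 and Ftl1 had 0. A match is only a run of letters.
Mt1, chr8:94178889-94179088: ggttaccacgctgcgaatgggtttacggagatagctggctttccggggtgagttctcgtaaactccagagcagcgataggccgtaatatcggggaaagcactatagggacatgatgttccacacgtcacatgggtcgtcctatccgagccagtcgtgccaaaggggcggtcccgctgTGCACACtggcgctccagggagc
Mt2, chr8:94172418-94172617: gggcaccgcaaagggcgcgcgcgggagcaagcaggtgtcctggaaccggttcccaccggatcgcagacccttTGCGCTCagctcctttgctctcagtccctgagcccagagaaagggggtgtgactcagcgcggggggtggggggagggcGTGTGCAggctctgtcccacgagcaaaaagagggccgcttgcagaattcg

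Mt2 was at FPKM of 51.1 in the control pool and 72.6 in the CKO pool, a ratio of 1.42 (1.29 to 1.56). Mt1 was at 39.1 and 48.8, a ratio of 1.247 (1.11 to 1.40). Summed, the pair was at 90.2 and 121, a ratio of 1.35 (1.251 to 1.45). Mt2 was the higher of the pair in both pools, 1.31-fold in the control pool and 1.49-fold in the CKO pool. Their transcripts are short (556 and 542 bases), and removing the trend of the difference with transcript length brought Mt2 to 0.66 on the log2(FPKM + 1) scale, past 1.5-fold, and Mt1 to 0.47. The brain and squamous forms Mt3 and Mt4 are listed at 0 in both pools. The sensor Mtf1 itself was at 1.91 and 2.04, a ratio of 1.07 (0.927 to 1.23), and the chromatin protein Mtf2 was at 3.32 and 3.24.

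Slc39a8 (ZIP8) showed the largest difference of the 10 genes. This importer of zinc, manganese and iron (chr3:135488455-135551536) was at FPKM of 17.7 and 31.4, a ratio of 1.77 (1.66 to 1.88). It was the only member at least 1.5-fold higher on the log2(FPKM + 1) scale, where its difference of 0.79 exceeded that of 98.7% of genes, and it passed under all 8 alternative ways of processing. Its 3 entries did not differ alike. The most abundant (3280 bases) had 11.3 and 19.4, the 3383-base entry 3.62 and 8.67, and the 3533-base entry 2.86 and 3.25. The row ratios were 1.73 (1.59 to 1.87), 2.39 (2.10 to 2.73) and 1.14 (0.956 to 1.35). The entries belong to 1 gene and share sequence, so the split depends on how Cufflinks shared reads. Alveolar type 1 cell markers were higher in the same pool, with none at 0 and sums of 190.4 and 428. Of these 11 markers 9 were at least 1.5-fold higher on the log2(FPKM + 1) scale, beside 3.02% of all genes. Differences lay above 0 for 10 of 10 alveolar type 2 and 8 of 8 ciliated cell markers past the filter, beside 63.2% of all genes. The part of these cell types in the level of Slc39a8 was not tested.

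Slc39a14 (ZIP14), the closest relative of Slc39a8 among the members, was low in both pools. Its FPKM was 0.453 and 0.475 (chr14:70703274-70751231), a ratio of 1.05 (0.726 to 1.55) from about 60 and 57 reads. Nearly all of it was assigned to the entry NM_001135152 in the control pool (99.9%) and to NM_144808 in the CKO pool (99.8%). With so few reads the choice between entries of 1 gene depends on how Cufflinks shared them. Slc39a8 exceeded Slc39a14 39.1-fold in the control pool and 66.0-fold in the CKO pool.

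**Figure D2:**
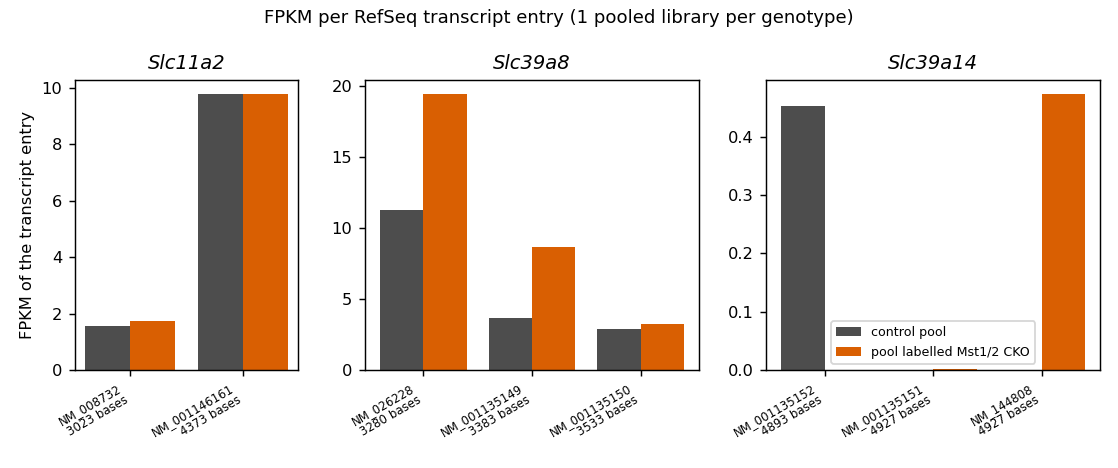
FPKM of each RefSeq transcript entry of Slc11a2, Slc39a8 and Slc39a14 in the control pool and the pool labelled Mst1/2 CKO, with bars from 0 and a separate axis per gene. The 3280-base and 3383-base entries of Slc39a8 are higher in the CKO pool, and the entry that holds Slc39a14 differs between pools.

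**Figure D3:**
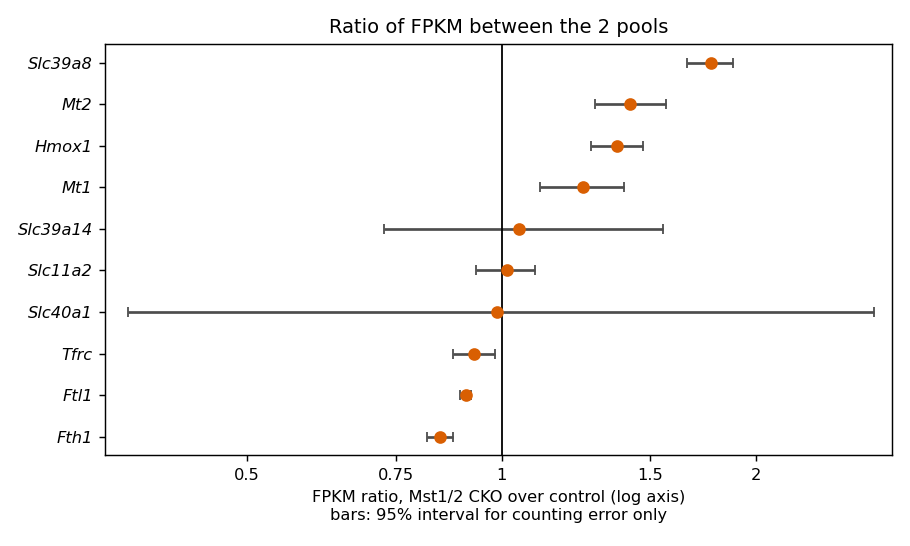
FPKM ratio of each gene, CKO over control pool, on a log axis, with bars for the 95% interval of counting error only. Slc39a8, Mt2, Hmox1 and Mt1 lie above 1, Tfrc, Ftl1 and Fth1 below 1, and the intervals of Slc39a14, Slc11a2 and Slc40a1 include 1.

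Counted together, 1 of the 8 members with FPKM of at least 1 was at least 1.5-fold higher and 0 were at least 1.5-fold lower. Over all 9945 such genes the shares were 3.02% (300 genes) and 2.59% (258 genes). These 2 counts became 208 and 325 with the median of all genes set to 0. After conversion to TPM they were 955 and 1237, of 14070 genes then past the filter. The members' median log2 difference was 0.17, beside 0.07 over all genes, with 5 members above 0 and 3 below. Over all genes 63.2% lay above 0 and 36.8% below, which is close to the split of the members. Without a filter on low values the members' median was 0.02, and in TPM it was 0.01. Intervals lay above 1 for 4 members and below 1 for 3. The same count was not made over all genes, so it cannot be read as particular to the members.

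**Figure D4:**
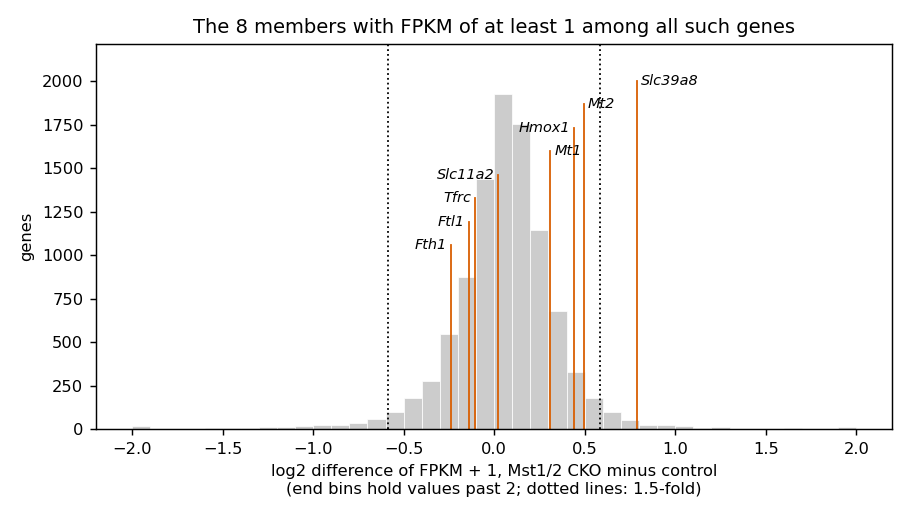
Number of genes by log2 difference of FPKM + 1, CKO minus control pool, for 9945 genes with FPKM of at least 1 in either pool (bins of 0.1), with a line at each of the 8 members. Slc39a8 lies past the upper 1.5-fold line, and Fth1, Ftl1 and Tfrc lie on the lower side of the bulk of genes.

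Other genes of iron traffic were taken from lists of names. By the 1.5-fold rule on the log2(FPKM + 1) scale, 3 genes of the uptake and export lists, Cp, Ltf and Lcn2, were lower in the CKO pool. Ceruloplasmin, Cp, the copper ferroxidase that loads iron onto transferrin, was at FPKM of 85.8 and 42.9, 2.00-fold lower (ratio 0.499, interval 0.482 to 0.519). Lactoferrin, Ltf, was at 8.31 and 4.16, a ratio of 0.501 (0.434 to 0.579). Lipocalin 2, Lcn2, which binds bacterial iron carriers, was at 369 and 236, a ratio of 0.639 (0.617 to 0.662), and was under 1.5-fold with the length trend removed (-0.54). Transferrin, Trf, named here after its values were seen, was at 77.5 and 53.8 and did not pass the rule. Lrp1 and Steap4 of the uptake list, also named after their values were seen, did not pass it either. By plain ratio both were more than 1.5-fold lower, at 0.498 (interval 0.430 to 0.576) and 0.614 (0.446 to 0.855). The highest ratio past the filter in that list was 1.41 (1.11 to 1.79), for Slc22a17. In the uptake and binding list 2 of 9 genes past the filter were lower by the 1.5-fold rule and 0 were higher, beside 2.59% and 3.02% of all genes. Differences in that list lay above 0 for 4 genes and below 0 for 5. The median of that list was -0.35, but 0.02 with no filter on low values and 0.05 in TPM. In the export and systemic control list 1 of 5 was lower (Cp) and 0 higher, with a median of -0.04. Hepcidin, the circulating hormone that removes ferroportin, is listed at 0 in both pools (Hamp and Hamp2). By the 1.5-fold rule 5 of 7 basal and mucous cell markers and 6 of 8 leukocyte markers were lower in the CKO pool, beside 2.59% of all genes. Ltf and Lcn2 are also made by neutrophils. The part of such cells in these levels was not tested.

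Genes that sense and recycle iron inside the cell did not pass this rule. Of 10 genes for iron regulation and ferritin turnover, 0 were 1.5-fold apart in either direction, with a median of 0.06. Pcbp2, a chaperone that hands iron to ferritin, was the most abundant of them at FPKM of 27.3 and 27.7. Ncoa4, the receptor that sends ferritin to lysosomes, was at 7.07 and 5.57, a ratio of 0.787 (0.710 to 0.901), yet 0.96 higher on the log2 scale when only the highest transcript entry was taken. The iron regulatory proteins that bind the hairpins, Aco1 (7.92 and 8.92) and Ireb2 (4.49 and 4.96), and Fbxl5, which targets Ireb2 for breakdown when iron is plentiful (6.45 and 6.92), were named after their values were seen. Of 20 genes for mitochondrial iron and iron-sulfur clusters, 0 were 1.5-fold apart on the log2(FPKM + 1) scale, with a median of -0.02. This count depends on the processing, since 2 were lower with a pseudocount of 0.1 and 3 in TPM. The most abundant, the cluster assembly factor Isca2, was at 17.1 and 14.5. The serine carrier Sfxn1 differed most on the log2(FPKM + 1) scale, at 7.33 and 4.65, a ratio of 0.635 (0.552 to 0.730). Slc25a37 of the same list, named after its values were seen, was at 13.1 and 8.67, a ratio of 0.664 (0.610 to 0.722). By plain ratio both were thus more than 1.5-fold lower.

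Among 16 heme genes other than Hmox1 past the filter, the 1.5-fold rule called 1 lower and 0 higher. Their median was -0.06. Alad, the second enzyme of heme synthesis, was at FPKM of 4.61 and 2.70, a ratio of 0.587 (0.447 to 0.762), and was under 1.5-fold with the length trend removed (-0.56). Haptoglobin, Hp, which binds free haemoglobin, was the most abundant at 400.3 and 410.5. Hmox2, the constitutive heme oxygenase, named after its values were seen, was at 8.02 and 8.91, so Hmox1 was the more abundant of the heme oxygenases in both pools. Erythroid genes, a possible source of heme transcripts, had 0 of 7 at FPKM of at least 1 and sums of 1.06 and 1.93.

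No other zinc carrier of the lists passed the 1.5-fold rule. Of 10 other Slc39 importers, 0 were at least 1.5-fold apart and the median was -0.02. Slc39a4, known from zinc uptake in the gut, was the most abundant at FPKM of 11.2 and 10.02, and Slc39a10 differed most on the log2(FPKM + 1) scale, at 6.10 and 8.02, a ratio of 1.31 (1.20 to 1.45). By ratio the low-level Slc39a3 differed more, at 0.849 and 1.19, a ratio of 1.40 (1.02 to 1.88). Slc39a8 exceeded each of these importers in both pools. Of 6 Slc30 exporters, 0 were 1.5-fold apart, with a median of 0.01. Slc30a9 was at 5.24 and 5.45, and Slc30a6 at 2.84 and 2.16. Slc30a1, the plasma membrane exporter that Mtf1 is known to switch on together with metallothionein, was at 1.41 and 1.45, named after its values were seen.

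Hmox1 and ferritin are also known targets of the oxidant-responsive factor Nrf2 (Nfe2l2). In a list of 20 genes of that pathway the rule called 1 lower and 0 higher. The median was -0.07. Slc7a11, the cystine importer that feeds glutathione synthesis, was the exception, at FPKM of 4.57 and 0.771, 5.93-fold lower (ratio 0.169, interval 0.143 to 0.198). The peroxidase Prdx1, the most abundant, was at 127 and 119. Nfe2l2 (72.7 and 83.4), Nqo1 (11.8 and 12.8) and Gclm (13.4 and 10.2) were named after their values were seen. Of the 20 differences 13 lay below 0, beside 36.8% of all genes. The part of Nrf2 in the level of Hmox1 was not tested. Whether leukocytes or basal cells, whose markers were lower in that pool, carry the difference of Slc7a11 was not tested.

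**Figure D5:**
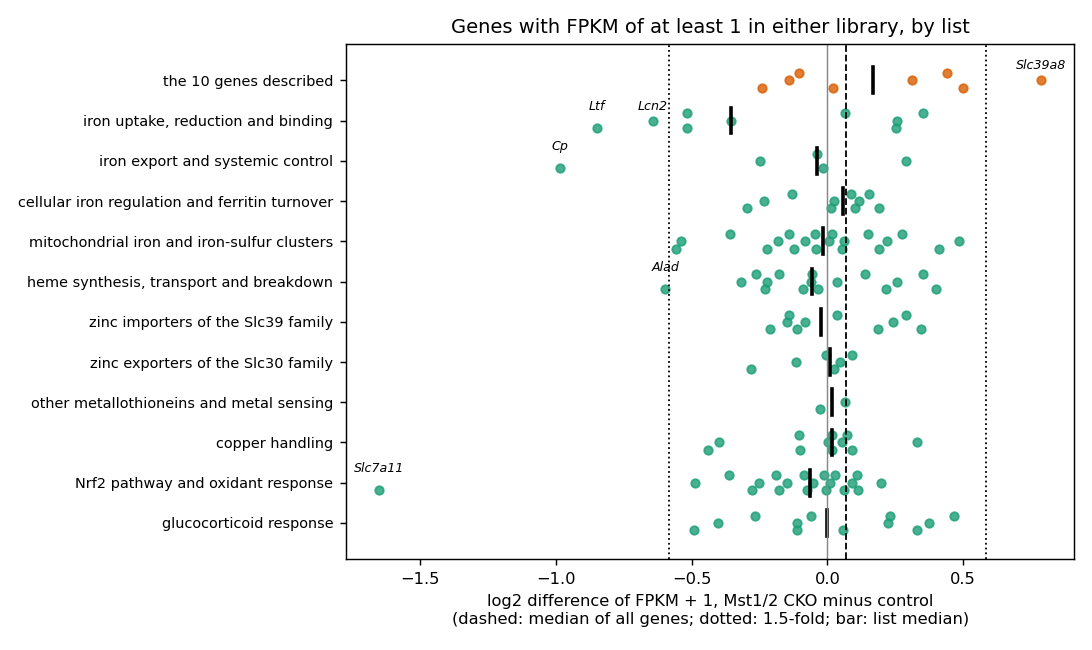
Log2 difference of FPKM + 1, CKO minus control pool, for genes with FPKM of at least 1 in either pool, 1 row of points per list, with the list median as a bar, the median of all genes dashed and 1.5-fold dotted. Slc39a8 is the only labelled gene on the upper side, and Slc7a11, Cp, Ltf, Lcn2 and Alad are labelled on the lower side.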

How the data were processed

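RNA-seq of 2 pooled libraries was compared, 1 per genotype. TopHat, Cufflinks and the build mm9 are named per the submitters' processing notes, and their versions and the strandedness were not given in the sources used here. The authors deposited FPKM per RefSeq transcript entry. Per the file headers each row also has coverage, a signal of mean read depth, and transcript length. FPKM was summed per gene symbol. Differences are log2(FPKM + 1), CKO minus control, which understates those of low genes. Genes with FPKM of at least 1 in either pool were counted at 1.5-fold. Approximate reads are coverage times length over 47.1 bases, the median of values from 25 to 75 bases in low single-entry genes. This read size is an assumption. Only 28.5% and 28.4% of low rows lay within 0.1 of a whole read, so no count test was run. Exact Clopper-Pearson 95% intervals of read ratios were scaled by the depth ratio of 0.895. Amplified reads are not independent molecules. The scripts (Python 3.11.15, scipy 1.17.1) were tested on simulated data. Starts count from 1.

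The genes and lists were chosen with earlier results of these data known. Named genes are all members and, per list, the most abundant gene and up to 4 at least 1.5-fold apart, or the most different. Alternatives changed the pseudocount, filter, row rule, status, scaling, centring, length trend and threshold.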

Additional observations from a re-analysis of the deposited data

How the results depend on the processing

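The 8 alternatives to the processing left the member counts at 1 higher and 0 lower, except that removing the transcript length trend gave 2 higher (Slc39a8 and Mt2). A lower threshold, a ratio of 25% above 1 or its inverse, gave 3 higher (Slc39a8, Mt2 and Hmox1), beside 12.8% of all genes higher and 7.36% lower. A threshold of 2-fold gave 0, beside 0.754% and 0.975%. Both gave 0 lower. The members' median log2 difference, 0.17 as reported, was 0.0211 with no filter on low values and 0.0125 in TPM, as genes under the filter then entered. Over all 9945 genes past the filter, 300 higher and 258 lower became 614 and 476 with a pseudocount of 0.1. The counts were 161 and 104 of 4253 genes with FPKM of at least 5, and 955 and 1237 of 14070 genes in TPM. In the iron uptake list 2 lower genes became 4 with the pseudocount of 0.1, in TPM and with the median of all genes set to 0. Among the other values of lists and single genes, 91 moved and 636 did not. A count was taken as moved past a factor of 1.5 or to or from 0, a median past 0.1, and a single gene past its counting error. A change of sign was scored only for single genes past 1.5-fold, and 0 were found. List medians were not scored for sign, and that of the iron uptake list went from -0.35 to 0.05 in TPM. No paired analysis was possible because each genotype has 1 library. For the same reason no replicate could be left out. Depth limits Slc40a1 and Slc39a14 most.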

Other observations

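Of 11 copper handling genes with FPKM of at least 1, 0 were at least 1.5-fold apart and the median log2 difference was 0.02. Sod1, the copper and zinc superoxide dismutase, was the most abundant at FPKM of 558 and 559. Commd1, which acts in copper export, differed most on the log2(FPKM + 1) scale, at 3.52 and 2.34 (ratio 0.663, interval 0.448 to 0.961). By ratio Sco1, a copper chaperone of cytochrome oxidase, differed more, at 1.61 and 0.976 (0.606, interval 0.469 to 0.773). By plain ratio both were thus more than 1.5-fold lower. The exporting pump Atp7b, named after its values were seen, was at 11.1 and 14.2.

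Genes of the glucocorticoid response were also counted, and their relation to Mt1 and Mt2 was not tested. Of 12 with FPKM of at least 1, 0 were at least 1.5-fold apart, with 6 above 0 and 6 below and a median of -0.0007. Zfp36, the most abundant, was at 403 and 304. Zbtb16 differed most on that scale, at 3.13 and 1.94 (ratio 0.619, interval 0.526 to 0.725), and was more than 1.5-fold lower by plain ratio. Fkbp5 fell short of the filter, with FPKM of 0.420 in the control and 0.304 in the CKO pool.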
